A study of Homo sapiens with 18 samples.

Results

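The response of C4-2 cells to the synthetic androgen R1881 was examined by RNA Seq in 6 of the 18 libraries of the series. These were the 3 libraries of C4-2 cells with scrambled siRNA (siScr) and vehicle, and the 3 of siScr C4-2 cells with R1881 (1 nm, 72 h), chosen by sample title with no measured value used. C4-2 is an androgen-independent derivative of LNCaP, a prostate cancer line that depends on androgen, and stands in the study for castration-resistant prostate cancer. All 6 cultures were transfected with the non-targeting siRNA pool and kept in medium with hormone-depleted serum, so the comparison holds the siRNA constant and adds the androgen. For the sequenced cells the vehicle is given as DMSO, while the culture methods give ethanol as the solvent of R1881. The 3 libraries of R1881-treated C4-2 cells with dual knockdown of KDM1A and KDM7A entered the fit to estimate the spread, and the siScr libraries of LNCaP (3 with vehicle and 3 with R1881) were used to test where the response differed. The study's methods call its inhibitor-treated RNA Seq samples biological replicates but give the siRNA samples by number alone, so whether the libraries of a group came from separate cultures is not stated, and p-values measure the spread between these libraries, which may be technical.

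As background, androgens are steroid hormones that change transcription in prostate cells through androgen response elements (AREs) in DNA, where coactivators and corepressors assemble. In luminal prostate cells they drive kallikreins and other secretory products as well as lipid and polyamine synthesis, and they lower a smaller set of genes. Castration-resistant cells usually keep using this programme at low androgen levels.

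The field for cell line names LNCaP for the C4-2 vehicle samples, whereas their titles name C4-2. Of 1036 genes that differed at least 8-fold between the lines in the R1881 libraries, 92.6%, 91.7% and 85.8% were nearer the C4-2 than the LNCaP level in the 3 C4-2 vehicle libraries, against 11.2 to 14.0% in the LNCaP vehicle libraries. Luminal prostate markers were present, with KRT8, KRT18, EPCAM, CDH1 and HOXB13 each above 100 counts per 1000000 (CPM) in each library of both groups, and TP63 and KRT5, which define basal cells, had at most 1 count in either group.

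Total counts were 18185805, 16596790 and 3182604 in vehicle libraries 1 to 3 and between 16781938 and 19092897 with R1881. Vehicle library 3 stood apart in depth and in pseudogene reads, which made up 1.91% of its counts, 0.566% and 0.564% in the other vehicle libraries and 0.488 to 0.513% with R1881. Among the genes tested, 193 were at least 4-fold higher in this library than in both other vehicle libraries and at 1 CPM or more in it. Of these, 145 were pseudogenes, while pseudogenes made up 1049 of all 16965 genes tested. Where both were worked out, results that rest on it are therefore given with and without it. GC content also moved with the groups. Relative to the mean of the libraries, genes above 60% GC were shifted by 0.25, 0.20 and 0.04 on the log2 scale in the vehicle libraries and by -0.13, -0.04 and -0.11 with R1881, and the part of this shift in the results was not tested beyond a fit with the trend removed.

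R1881 changed the level of about as many genes upwards as downwards. Of 16965 genes tested, 728 were up-regulated (4.29%) and 811 down-regulated (4.78%). These genes, called differentially expressed here, had a Benjamini-Hochberg adjusted p under 0.05 in the quasi-likelihood test of edgeR and changed 2-fold or more, that is by 1 or more in log2 fold change (log2FC). By adjusted p alone, 2902 genes rose (17.1%) and 2669 fell (15.7%), and the words rose and fell are used in this sense. The median log2FC of all genes tested was -0.02. Among the differentially expressed genes, 145 were at least 8-fold higher and 121 at least 8-fold lower. The 121 include decreases that rest on vehicle library 3, such as that of EEF1A1P19, and were not recounted without it. Together the up-regulated genes took 1.82% ± 0.05 (SD, n = 3) of all counts with vehicle and 5.20% ± 0.09 with R1881. In bulk RNA, a change in the number of cells of one kind and a change in RNA per cell cannot be told apart.

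Without vehicle library 3, 1393 of the 1539 differentially expressed genes were called again. One of the 1393, XAGE1B, then changed direction, from -3.68 to 1.49. The 146 that were not called again comprised 38 up-regulated and 108 down-regulated genes. Of 1049 pseudogenes tested, 93 were down-regulated, and 38 of these were called again without that library. The largest class, processed pseudogenes, had 11.6% down-regulated, against 4.78% of all genes tested. Of the 193 genes at least 4-fold higher in vehicle library 3, 71 were down-regulated, and 6 of these were called again without it. The totals changed little, to 753 up-regulated and 844 down-regulated of 17388 tested.

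**Figure D1:**
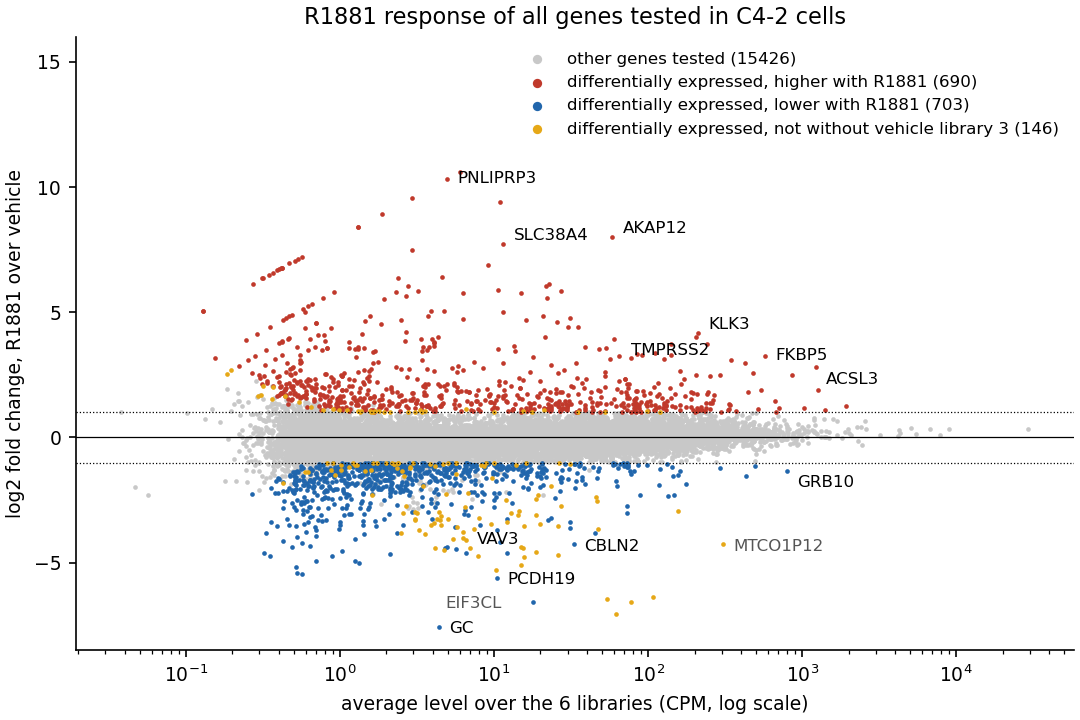
Log2 fold change of siScr R1881 over siScr vehicle in C4-2 (y axis) against the average level over the 6 libraries in CPM (x axis, log scale), 1 point for each of the 16965 genes tested. Red and blue points are the 690 higher and 703 lower genes that were differentially expressed with all libraries and were called again without vehicle library 3 (XAGE1B in the other direction), yellow points the 146 that were not called without it, and grey points the other 15426; fitted values of genes with no vehicle counts, at the top left, depend on the prior count of the fit.

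Known androgen-induced genes, listed with earlier results of these data known, rose almost throughout. Of 28 listed genes, all were tested, 27 rose and 24 were up-regulated at least 2-fold, against 4.29% of all genes tested, with a median log2FC of 2.90. KLK3, which encodes the secreted protease PSA (chr19:50854915-50860764, GRCh38, ENSG00000142515), was at 21.7, 24.3 and 18.9 CPM with vehicle and at 393, 379 and 418 CPM with R1881. The groups lay far apart, with a log2FC of 4.16 ± 0.12 (SE; edgeR adjusted p = 4.4e-12). KLK2, its neighbour and close relative, went from 27.0, 27.5 and 22.1 CPM to 254, 251 and 266 CPM, a log2FC of 3.29 ± 0.10 (edgeR adjusted p = 6.0e-12). The same list held KLK4 and KLK15 from the same gene cluster, and these rose less, with log2FC of 0.68 and 0.63. STEAP2, a metalloreductase, was at 783, 870.1 and 878.2 CPM with vehicle and 959 to 996 CPM with R1881, and its log2FC of 0.21 did not pass (edgeR adjusted p = 0.078).

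Both kallikrein starts carry the 6-letter core of an ARE close upstream, and the windows from 250 bases before to 50 after the annotated start are shown for that reason, with motif matches in capitals (RefSeq, GRCh38.p14, plus strand, chr19:50854665-50854964 and chr19:50873189-50873488).
KLK3: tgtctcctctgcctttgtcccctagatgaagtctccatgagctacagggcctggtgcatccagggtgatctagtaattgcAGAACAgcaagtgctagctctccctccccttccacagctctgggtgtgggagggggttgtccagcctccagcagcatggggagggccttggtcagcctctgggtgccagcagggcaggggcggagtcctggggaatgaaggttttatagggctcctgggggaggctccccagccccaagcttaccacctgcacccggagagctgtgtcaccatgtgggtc
KLK2: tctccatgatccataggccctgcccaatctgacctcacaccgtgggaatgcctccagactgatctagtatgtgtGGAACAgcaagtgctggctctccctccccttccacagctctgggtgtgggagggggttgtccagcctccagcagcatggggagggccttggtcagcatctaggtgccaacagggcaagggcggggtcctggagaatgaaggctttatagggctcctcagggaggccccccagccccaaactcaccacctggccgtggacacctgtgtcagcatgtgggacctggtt
The KLK3 window holds AGAACA from 170 bases before the start, and the KLK2 window holds GGAACA from 176 bases before it. With the windows shifted by 6 bases against each other, 225 of 294 aligned bases were identical (76.5%), with a longest shared run of 80 bases. The hexamers AGAACA and GGAACA and the core ACANNNTGT of the full site were searched on both strands. Windows were given for 21 of the 28 androgen-induced genes, and 11 of their 30 windows held at least one of these motifs, against 29.4% of all 35116 windows. AGAACA was in 4 of the 30, GGAACA in 6 and ACANNNTGT in 1, against 14.8%, 14.0% and 5.37% of all windows. A match is only a match of letters in a short window.

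The androgen-induced genes served several functions. FKBP5, a co-chaperone of steroid receptors, went from 107, 111 and 107 CPM to 1026, 995 and 1088 CPM (log2FC 3.26 ± 0.08, edgeR adjusted p = 1.9e-12). TMPRSS2, the serine protease whose promoter is fused to ERG in many prostate tumours, was at 66.3, 82.0 and 65.8 CPM with vehicle and at 612, 605 and 647 CPM with R1881. SLC45A3 (prostein) showed a 16.3-fold increase, from 24.5, 24.2 and 20.4 CPM to 369.7, 389 and 394 CPM. In each of these genes the lowest R1881 library was above the highest vehicle library. PMEPA1, an inhibitor of TGF-beta signalling, rose by 3.39, CAMKK2, a kinase upstream of AMPK, by 1.78, and the transcription factor MAF by 4.62 on the log2 scale.

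Some of these genes were close to silent with vehicle. HPGD, which breaks down prostaglandins, went from 0.362, 0.629 and 0.885 CPM to 30.9, 25.6 and 31.1 CPM, a log2FC of 5.77 ± 0.20. STEAP4, another metalloreductase, was at 0.207, 0.286 and 0 CPM with vehicle and at 11.7, 10.9 and 14.8 CPM with R1881 (log2FC 5.76 ± 0.27). ADAM7, of the metalloprotease family, had 2 counts over the vehicle libraries and 247 over the R1881 libraries, a ratio of 94.9 after scaling to library size (95% exact interval 26.0 to 788). These intervals cover counting error only.

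**Figure D2:**
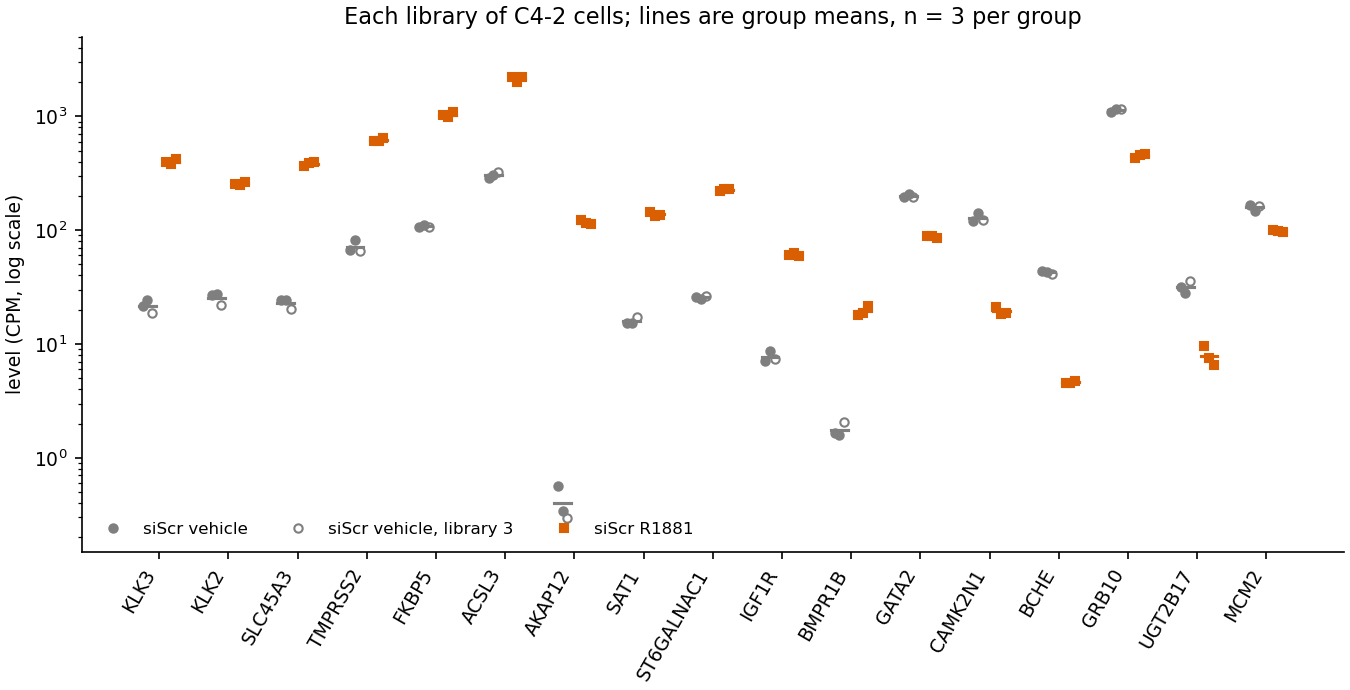
Levels of 17 genes in CPM (y axis, log scale) in each library of C4-2 cells, with siScr vehicle as grey circles (library 3 open), siScr R1881 as orange squares and group means as short lines (n = 3 per group). In every gene shown the groups are separate, with KLK3 17.9-fold higher and BCHE 9.23-fold lower with R1881, and vehicle library 3 lies near the other vehicle libraries.

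Genes listed as lowered by androgen mostly fell. Of 14 listed, 11 were tested, 8 fell and 2 rose, with a median log2FC of -1.86, and 6 were down-regulated at least 2-fold against 4.78% of all genes tested. BCHE (butyrylcholinesterase) fell from 43.6, 42.6 and 41.3 CPM to 4.54, 4.57 and 4.73 CPM, a log2FC of -3.21 ± 0.11 (edgeR adjusted p = 2.6e-11). CAMK2N1, an inhibitor of CaM kinase II, fell by 2.72 on the log2 scale, the receptor tyrosine kinase gene MET by 2.21 and DDC, which encodes dopa decarboxylase, by 1.86.

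The UGT2B enzymes, which inactivate androgens by adding glucuronic acid, were split. UGT2B15 fell from 94.4, 85.7 and 119 CPM to 26.4, 27.5 and 22.6 CPM, and UGT2B17 fell from 31.7, 28.0 and 36.0 CPM to 9.62, 7.56 and 6.57 CPM. In contrast, UGT2B28 went from 11.6, 11.5 and 10.9 CPM to 104, 99.8 and 101 CPM (log2FC 3.15 ± 0.09), and UGT2B11 from 52.2, 42.9 and 25.1 CPM to 196, 191 and 185 CPM (log2FC 2.17 ± 0.15). UGT2B11 and UGT2B28, the only genes of the list that rose, also rose in LNCaP, with log2FC of 4.43 and 6.18. The UGT2B genes are close copies in 1 cluster on chromosome 4, the annotated intervals of UGT2B15 and UGT2B17 overlap, and counting could divide their reads in error.

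One window of DDC, from 250 bases before to 50 after an annotated start (chr7:50561022-50561321, minus strand, GRCh38.p14), is shown because it holds both GGAACA and a match to ACANNNTGT and belongs to a gene that fell.
DDC: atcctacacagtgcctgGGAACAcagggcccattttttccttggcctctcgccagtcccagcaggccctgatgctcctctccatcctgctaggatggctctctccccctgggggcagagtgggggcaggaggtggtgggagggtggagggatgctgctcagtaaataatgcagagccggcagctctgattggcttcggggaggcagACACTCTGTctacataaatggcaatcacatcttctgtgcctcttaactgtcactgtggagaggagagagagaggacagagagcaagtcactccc
Windows were given for 7 of the 14 listed genes, and 3 of their 9 windows held any of the 3 motifs, against 29.4% of all windows. The other window of DDC held none.

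Among cofactors and chaperones of the androgen response the changes were mostly small and went both ways. Of 21 genes tested, 9 rose and 6 fell, against 17.1% and 15.7% of all genes tested, with a median log2FC of 0.14. The rises included the chaperones HSP90AA1, HSP90AB1 and PTGES3, by 0.40, 0.22 and 0.27 on the log2 scale. PIAS1, a SUMO ligase, rose from 45.7, 46.3 and 47.5 CPM to 152, 159 and 170.2 CPM (log2FC 1.79 ± 0.09, edgeR adjusted p = 1.2e-09). KDM7A, a histone demethylase targeted in the study, was at 50.7, 56.6 and 53.1 CPM with vehicle and at 111, 118 and 132 CPM with R1881, a log2FC of 1.17 ± 0.11 (edgeR adjusted p = 8.9e-07). KDM1A (LSD1), the other demethylase targeted, was at 132, 123 and 132 CPM with vehicle and at 145, 140.0 and 142 CPM with R1881. Its log2FC of 0.14 ± 0.10 did not pass (edgeR adjusted p = 0.30), although the groups did not overlap, as in 46.8% of all genes tested. The pioneer factor GATA2 fell from 196, 207 and 197 CPM to 88.2, 89.7 and 85.1 CPM (log2FC -1.19 ± 0.08). The pioneer factor FOXA1 and its partner HOXB13 fell less, by 0.33 and 0.43 on the log2 scale.

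Most genes of steroid metabolism were at low levels, and 10 of 20 were tested. CYP11A1, which cleaves the side chain of cholesterol, went from 0.310, 0.114 and 0.295 CPM to 8.197, 6.99 and 7.55 CPM (log2FC 5.03 ± 0.30). HSD17B11 rose from 10.4, 10.2 and 14.7 CPM to 25.03, 23.1 and 24.8 CPM. HSD3B1, which makes androstenedione from DHEA, fell from 2.02, 3.26 and 4.72 CPM to 1.20, 1.24 and 0.614 CPM (log2FC -1.58 ± 0.36, edgeR adjusted p = 0.0038). In all, 5 of the 10 rose and 1 fell, against 17.1% and 15.7% of all genes tested.

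Lipid synthesis genes rose together in small steps, with a few large ones. In the fatty acid list, 13 of 17 genes rose and 1 fell, with a median log2FC of 0.65, against 17.1% and 15.7% of all genes tested. ACSL3, which activates fatty acids with coenzyme A, went from 285, 307 and 325 CPM to 2211, 2021 and 2216 CPM (log2FC 2.82 ± 0.08). The elongase ELOVL5 went from 242, 268 and 263 CPM to 1568, 1377 and 1466 CPM (log2FC 2.51 ± 0.08), and ELOVL7 rose by 2.35. FASN (fatty acid synthase) was already abundant, at 1995, 2225 and 1766 CPM, and reached 2783, 3449.7 and 3159 CPM, a log2FC of 0.65 ± 0.11. The exception was the elongase ELOVL6, at 107, 106 and 114 CPM with vehicle and at 39.4, 46.4 and 42.9 CPM with R1881, a log2FC of -1.34 ± 0.10 (edgeR adjusted p = 8.8e-08).

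In the cholesterol list, 13 of 20 genes rose and 1 fell, against 17.1% and 15.7% of all genes tested, with a median log2FC of 0.37. INSIG1, an ER protein that restrains sterol synthesis, rose by 0.98, and the sterol carrier STARD4 by 1.0 on the log2 scale. The regulator SREBF2 had a log2FC of 0.03, which did not pass.

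Polyamines are a secretory product of the prostate, and genes of both their synthesis and their breakdown rose. Of 12 genes of polyamine metabolism 6 rose (5 without vehicle library 3), against 17.1% of all genes tested, with a median log2FC of 0.21. SAT1, which acetylates spermidine and spermine for breakdown and export, went from 15.2, 15.3 and 17.1 CPM to 145, 134 and 137 CPM (log2FC 3.15 ± 0.08). SMS (spermine synthase) rose by 1.73, ODC1 (ornithine decarboxylase) by 1.17 and AMD1, which supplies the aminopropyl donor, by 0.60.

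Genes for making glycans and for the secretory route rose as well. In the glycosylation list 12 of 17 rose and 1 fell, against 17.1% and 15.7% of all genes tested, with a median log2FC of 0.52. ST6GALNAC1, a sialyltransferase that makes the sialyl-Tn antigen, went from 25.8, 24.9 and 26.5 CPM to 220.4, 232 and 229 CPM (log2FC 3.15 ± 0.08). UAP1, which makes UDP-N-acetylglucosamine, went from 190.4, 194 and 212 CPM to 719, 669 and 689.9 CPM (log2FC 1.81 ± 0.07). GCNT2, ST6GAL1 and CSGALNACT1 were also up-regulated at least 2-fold. In the list of ER secretory and unfolded protein response genes, 16 of 23 rose and 2 fell, against the same 17.1% and 15.7%. The median log2FC was 0.30. The stress sensor ERN1 (IRE1) rose, with a log2FC of 1.01, while DDIT3 (CHOP) and XBP1 fell by 0.34 and 0.25. Without vehicle library 3 these falls did not pass.

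Glucose metabolism genes showed 12 rises among 18 (10 without vehicle library 3), against 17.1% of all genes tested, with a median log2FC of 0.36. SLC2A3 (GLUT3), a glucose transporter, had 0 counts in all 3 vehicle libraries and 13.0, 12.2 and 10.7 CPM with R1881, at least 161-fold higher when the vehicle group is set at 3 counts. SLC2A12 rose by 1.82 and PFKFB2, which makes an activator of glycolysis, by 1.26, whereas SLC2A1 (GLUT1) rose by 0.51. Of the amino acid transporters 4 of 13 rose and 3 fell, against 17.1% and 15.7% of all genes. SLC38A4, a transporter of neutral amino acids, went from 0.0517, 0.171 and 0 CPM to 21.6, 22.2 and 24.7 CPM (log2FC 7.74 ± 0.27). SLC43A1 (LAT3) rose by 1.39, and the taurine transporter SLC6A6 fell by 1.23.

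**Figure D3:**
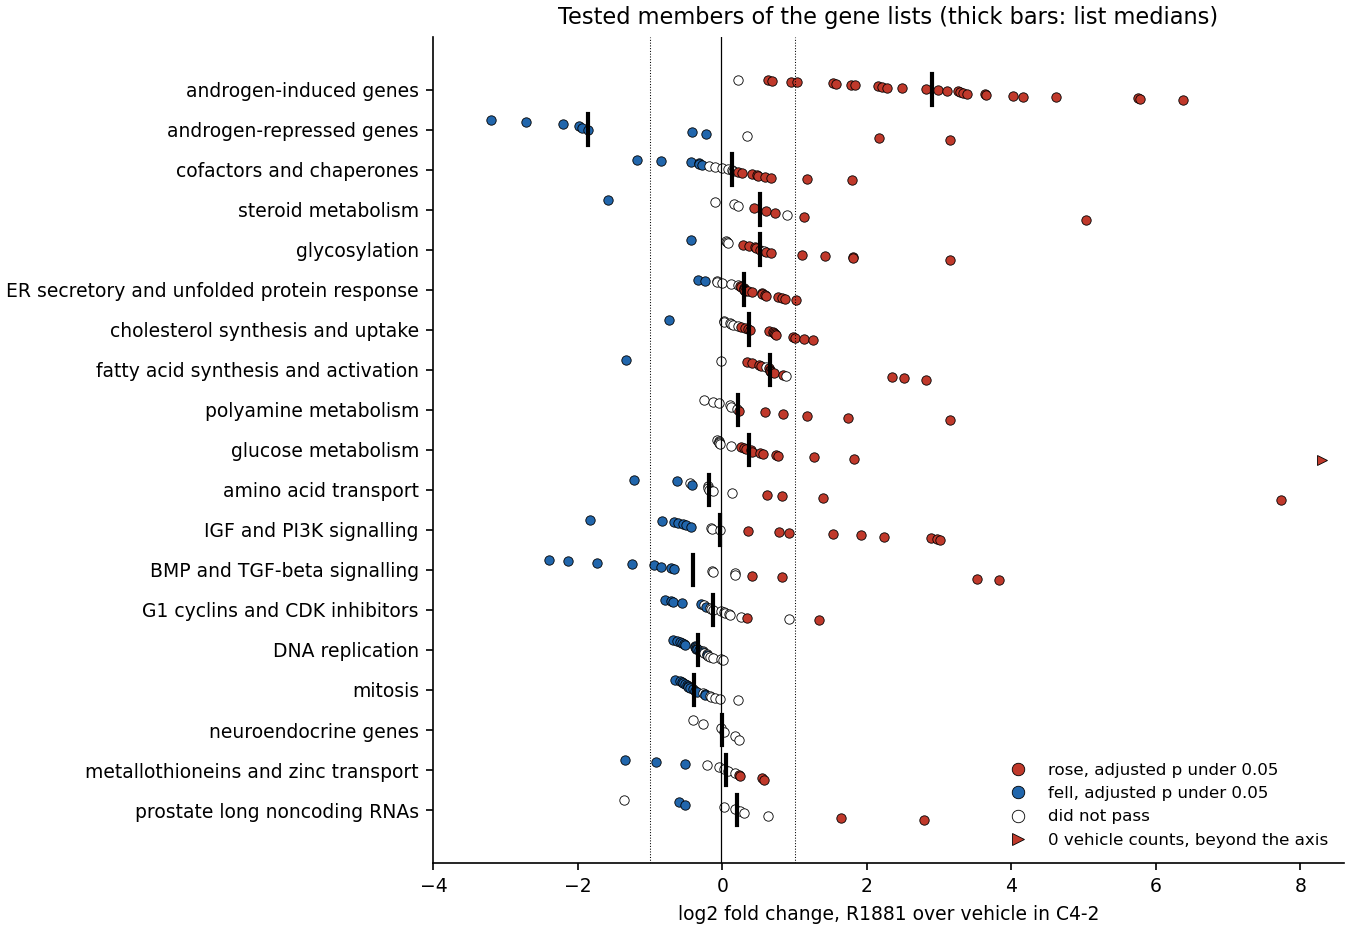
Log2 fold change of R1881 over vehicle in C4-2 (x axis) for each tested member of 19 gene lists (y axis), coloured red or blue where the edgeR adjusted p was under 0.05; thick bars are list medians, the thin line is the median of all genes tested and dotted lines mark 2-fold changes. The androgen-induced list has its median at 2.90, the DNA replication and mitosis lists lie mostly left of zero at -0.34 and -0.39, and SLC2A3, with 0 vehicle counts, is drawn as a triangle at the edge.

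Growth factor signalling genes moved both ways. In the list for IGF and PI3K signalling, 9 of 19 genes rose (8 without vehicle library 3) and 7 fell, against 17.1% and 15.7% of all genes. The median log2FC was -0.04 (0.25 without vehicle library 3). IGF1R, the receptor for IGF1, went from 7.04, 8.69 and 7.37 CPM to 60.1, 62.7 and 59.7 CPM (log2FC 2.97 ± 0.11). The adaptors IRS1 and IRS2 rose by 2.24 and 1.92, the lipid phosphatase INPP4B by 2.88, and the kinases SGK1 and SGK3 by 3.02 and 1.53. IGFBP3, a secreted binding protein for IGF, fell from 6.88, 6.86 and 10.6 CPM to 1.86, 2.59 and 2.03 CPM, and smaller falls were seen for INSR (-0.55), PIK3R1 (-0.51) and PHLPP1 (-0.67). GRB10, an adaptor that dampens insulin and IGF receptor signalling, is no member of the list and lost the most CPM of all genes tested. It was at 1086, 1157 and 1156 CPM with vehicle and at 429, 461 and 462 CPM with R1881 (log2FC -1.33 ± 0.07, edgeR adjusted p = 2.8e-09).

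The BMP and TGF-beta list had 4 rises and 8 falls among 16 genes tested, against 17.1% and 15.7% of all genes. Its median log2FC was -0.41. The receptor BMPR1B went from 1.66, 1.60 and 2.06 CPM to 17.98, 18.7 and 21.4 CPM (log2FC 3.52 ± 0.17). TGFBR2 had 2 vehicle counts and 42 with R1881, a ratio of 16.1 (95% exact interval 4.199 to 138). The members that fell included ID1 (-1.26), ID2 (-0.72), ID3 (-0.95) and the inhibitory SMAD7 (-1.74). BAMBI, a pseudoreceptor that blocks the pathway, fell from 36.3, 40.9 and 49.0 CPM to 8.09, 8.46 and 6.75 CPM (log2FC -2.41 ± 0.14), and the ligand BMP7 fell by 2.13.

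Proliferation genes were lower with R1881, by less than 2-fold. In the DNA replication list, 13 of 22 genes fell, against 15.7% of all genes tested, and the other 9 did not pass. The median log2FC was -0.34. MCM2, a subunit of the replicative helicase, went from 168, 147 and 162 CPM to 99.9, 98.5 and 97.3 CPM (log2FC -0.69 ± 0.07, edgeR adjusted p = 5.2e-06), and MCM3 fell by 0.62. In the mitosis list, 14 of 20 fell, against the same 15.7%, and the other 6 did not pass, with a median of -0.39. MKI67, the gene of the Ki-67 antigen, went from 300.3, 334 and 352 CPM to 208, 246 and 244 CPM (log2FC -0.49 ± 0.13, edgeR adjusted p = 0.0080), and PLK1 fell by 0.66. Without vehicle library 3, 12 of 22 and 9 of 20 fell, with medians of -0.29 and -0.30. Of the G1 cyclins and their inhibitors, 2 of 19 rose and 6 fell (5 without vehicle library 3), against 17.1% and 15.7% of all genes tested. The activators E2F1 and E2F2 fell by 0.68 and 0.71, CCND1 by 0.22, while CDK6 rose by 1.33 from a mean of 2.62 CPM and the inhibitor CDKN1A by 0.33. MYC had a log2FC of -0.16 that did not pass (edgeR adjusted p = 0.16), and its groups overlapped.

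Neuroendocrine genes showed no change that passed the test. Of 19 listed, 13 were too low to test, CHGA among them with 7 counts over the vehicle and 6 over the R1881 libraries. None of the 6 tested passed in edgeR or DESeq2, and 0 had an unadjusted p under 0.05. Of the metallothionein and zinc transport genes, 4 of 12 rose and 3 fell, against the same 17.1% and 15.7% of all genes. MT2A, a metallothionein that binds zinc, fell from 68.8, 72.9 and 62.5 CPM to 27.3, 28.0 and 25.7 CPM (log2FC -1.35 ± 0.10). Of the prostate long noncoding RNAs, 2 of 10 tested rose and 2 fell (1 without vehicle library 3), near the 17.1% and 15.7% of all genes. ARLNC1 went from 1.60, 1.26 and 0.885 CPM to 8.69, 9.31 and 10.5 CPM (log2FC 2.79 ± 0.23), and CTBP1-AS, an antisense gene whose reads cannot be told from its partner's in unstranded counts, rose by 1.64. PCA3 was unchanged within its error, with a log2FC of 0.02.

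Markers of other cell types were at low levels, and their part in the other results was not tested. For the stromal list, 3 of 7 were tested and fell, ACTA2 (-2.03), PDGFRB (-1.33) and COL1A1 (-0.70), and its summed level was 32.7 to 40.6 CPM with vehicle and 18.9 to 26.0 CPM with R1881, with COL1A2 and LUM at 0 counts. For the basal list, KRT14 rose by 2.68 from 0.0517, 0.286 and 0 CPM to 1.26, 0.959 and 0.737 CPM, and KRT15, with 2 vehicle and 21 R1881 counts, had a ratio of 8.07 (95% exact interval 1.97 to 71.0). ITGA6, the third basal marker tested and the most abundant, fell by 0.34 on the log2 scale, and the summed level of the list was 46.0 to 55.7 CPM with vehicle and 38.3 to 46.1 CPM with R1881. In the immune and endothelial list, PTPRC (CD45) went from 3.21, 2.34 and 1.77 CPM to 0, 0.0564 and 0.184 CPM, a log2FC of -4.93 ± 0.64. LYZ (lysozyme) moved the other way, from 0, 0.171 and 0.295 CPM to 0.874, 0.733 and 1.23 CPM (log2FC 3.11 ± 0.64), and VWF did not pass. CD3E had at most 1 count in either group, and the summed level of this list was 7.96 to 12.9 CPM with vehicle and 9.84 to 11.6 CPM with R1881.

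The largest increases were in genes with almost no vehicle reads. Ranked by log2FC, the first 12 up-regulated genes whose groups were separate and whose mean level reached 1 CPM were SLC2A3, PNLIPRP3, PNLIP, SLC26A3, TMEM100, LINC00160, ALPK2, AKAP12, SLC38A4, ORM1, SNAI2 and ORM2. The lipase genes PNLIPRP3 and PNLIP, which lie near each other in the genome, had 0 vehicle counts and reached 9.59 to 10.3 CPM and 5.53 to 6.39 CPM, at least 133-fold and 78.4-fold higher. TMEM100, a membrane protein, the noncoding LINC00160 and the kinase ALPK2 also had 0 vehicle counts and were at least 50.2-fold, 35.1-fold and 35.1-fold higher. SLC26A3, a chloride and bicarbonate exchanger, had 1 vehicle count against 1139, a ratio of 875 (95% exact interval 157 to 34608). ORM1 and ORM2, which encode acute-phase glycoproteins and are near-identical copies, reached 5.52 to 6.23 CPM and 8.01 to 10.5 CPM.

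AKAP12, a scaffold for protein kinase A and C (chr6:151239999-151358557), stood out by its level. It was at 0.569, 0.343 and 0.295 CPM with vehicle and at 122, 115 and 112 CPM with R1881, a 256-fold difference (log2FC 8.0 ± 0.16, edgeR adjusted p = 3.3e-13). SNAI2 (Slug), a repressor of epithelial genes, went from 0.207, 0.114 and 0 CPM to 19.5, 16.4 and 18.9 CPM (log2FC 6.87 ± 0.26). The windows of AKAP12 (chr6:151239717-151240016, plus strand) and PNLIPRP3 (chr10:116427597-116427896, plus strand) are shown as examples of genes that rose from near zero and hold matches on either strand, in capitals, chosen after their matches were seen. Both other windows of AKAP12 held none. PNLIPRP3 also holds a match to ACANNNTGT.
AKAP12: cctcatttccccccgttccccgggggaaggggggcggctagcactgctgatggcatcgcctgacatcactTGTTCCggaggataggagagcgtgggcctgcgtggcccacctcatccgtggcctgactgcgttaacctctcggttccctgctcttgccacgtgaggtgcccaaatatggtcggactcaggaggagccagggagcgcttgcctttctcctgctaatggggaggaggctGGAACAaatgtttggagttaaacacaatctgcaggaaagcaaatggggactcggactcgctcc
PNLIPRP3: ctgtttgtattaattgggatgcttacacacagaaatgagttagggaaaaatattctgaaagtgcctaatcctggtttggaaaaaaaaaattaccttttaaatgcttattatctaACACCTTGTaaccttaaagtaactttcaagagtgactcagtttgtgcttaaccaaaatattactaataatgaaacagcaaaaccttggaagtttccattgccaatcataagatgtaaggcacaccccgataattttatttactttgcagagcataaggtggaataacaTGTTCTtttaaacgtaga
Of the 12 genes, 8 had windows analysed here, and 4 of their 10 windows held any of the 3 motifs, against 29.4% of all windows.

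The largest decreases by the same rule were GC, EIF3CL, PCDH19, CLEC2A, PTPRC, EEF1A1P19, CTNNA3, FOLH1B, VAV3, PTPRQ, COLEC12 and RPL4P4. GC, the vitamin D binding protein, had 339 vehicle and 2 R1881 counts, a ratio of 221 (95% exact interval 60.6 to 1828). The adhesion gene PCDH19 fell from 20.2, 22.4 and 19.2 CPM to 0.383, 0.564 and 0.307 CPM (log2FC -5.60 ± 0.26). VAV3, a guanine nucleotide exchange factor, fell from 11.6, 13.8 and 12.7 CPM to 0.437, 0.451 and 0.675 CPM, and COLEC12, a scavenger receptor, from 9.78, 10.2 and 12.7 CPM to 0.820, 0.226 and 0.368 CPM. CTNNA3, an alpha-catenin, fell by 4.67.

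Another 4 members of this set changed far less without vehicle library 3. EIF3CL, a near copy of EIF3C, was at 0.931, 1.03 and 104 CPM with vehicle and at 0.246 to 0.437 CPM with R1881, and its log2FC was -6.57 with and -1.57 without that library (edgeR adjusted p = 0.014 without it). The pseudogene EEF1A1P19 had 87.3 CPM in vehicle library 3 and 1.55 and 1.49 CPM in the others, and its log2FC went from -4.78 to -0.67 (edgeR adjusted p = 0.16 without it). FOLH1B, a copy of FOLH1, and RPL4P4 went from -4.62 to -1.01 and from -4.43 to -0.86. The next decreases that were called with and without the library, chosen after their values were seen, were PLA2G2A, RBP3, CBLN2, CCDC80, SLC6A20 and PCED1B. CBLN2, a secreted synaptic protein, fell from 62.8, 52.9 and 71.7 CPM to 2.84, 3.44 and 3.31 CPM (log2FC -4.27 ± 0.15).

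**Figure D4:**
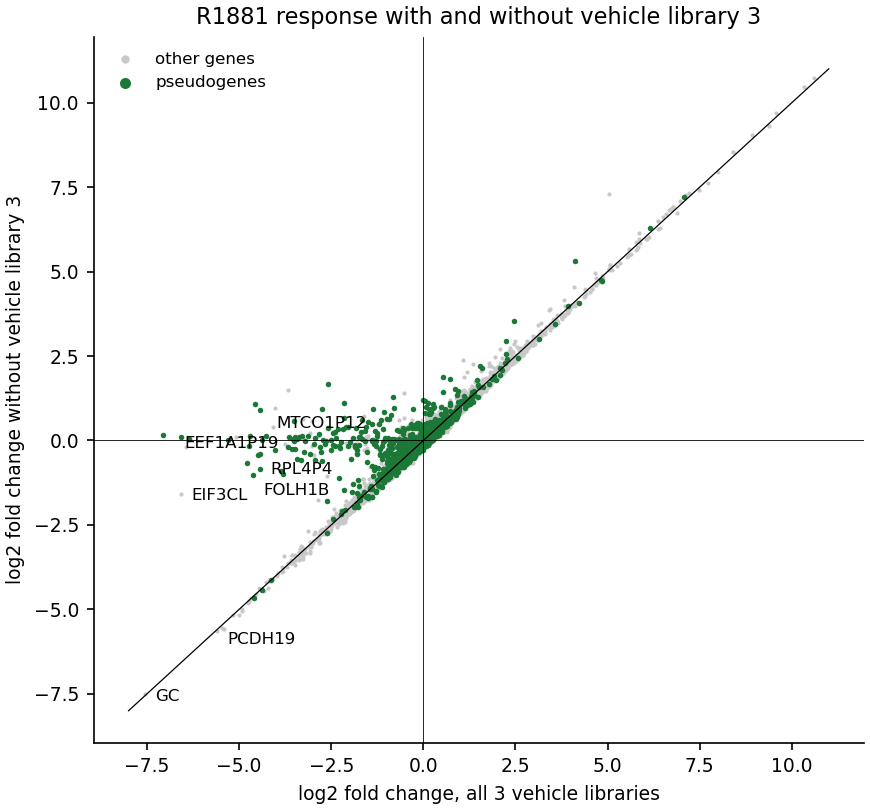
Log2 fold change of R1881 over vehicle in C4-2 with all 3 vehicle libraries (x axis) and without vehicle library 3 (y axis), with pseudogenes in green, other genes in grey and a diagonal where both are equal. Most genes lie on the diagonal, whereas pseudogenes such as MTCO1P12 form a band near zero on the y axis, at -4.27 with and 0.13 without the library.

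The 10 genes with most CPM gained included MT-RNR2, MT-CO1, ACSL3, MT-RNR1, MT-CO2, ELOVL5, FASN and ABHD2. ABHD2, a lipid hydrolase, went from 812, 958 and 936 CPM to 1807, 1974 and 1982 CPM. The 4 mitochondrial RNAs had log2FC of 0.32 to 0.39. Without vehicle library 3, those of MT-RNR1, MT-CO1 and MT-CO2 were 0.19, 0.20 and 0.23 and that of MT-RNR2 was 0.30, and all 4 passed. The share of all mitochondrial genes was 8.10% ± 0.99 (SD, n = 3) with vehicle and 8.77% ± 0.09 with R1881 (2-sided exact permutation p = 0.4, smallest possible 0.1), with vehicle library 3 the lowest. By CPM lost, GRB10 was followed by MTCO1P12, which rested on vehicle library 3, and then by EEF2 and ADD3. ADD3, a cytoskeletal adducin, fell by 1.53 on the log2 scale.

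Whether C4-2 and LNCaP responded differently was tested with an interaction term over the 18 libraries. Of 18684 genes tested, 373 had an at least 2-fold more positive and 435 an at least 2-fold more negative response in C4-2 (2.00% and 2.33%), and by adjusted p alone 6.05% and 7.95% of genes differed in these directions. The 2-fold counts were 356 and 452 without C4-2 vehicle library 3, and 383 and 427 without LNCaP vehicle library 1. In LNCaP, 974 genes were up-regulated (5.68%) and 1136 down-regulated (6.62%). Of 15775 genes tested in both lines, 390 were up-regulated in both, which is 63.4% of those up-regulated in C4-2 and 47.2% of those in LNCaP. For down-regulated genes the 326 shared were 49.7% and 36.1%. These were not recounted without single libraries, and they include genes raised in a single vehicle library of each line. LNCaP vehicle library 1 had 10485096 counts, with 1.19% from pseudogenes, against 0.683% and 0.632% in the other LNCaP vehicle libraries. EIF3CL was at 41.4 CPM in it and at 0.788 and 0.822 CPM in the others. EEF1A1P19 and MTCO1P12 were also among the 326 and highest in that library. In addition, 7 genes were up-regulated in C4-2 and down-regulated in LNCaP, and 15 the reverse.

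Many of the androgen-induced genes responded less in C4-2. The response was more negative in 16 of 28 and more positive in 2, against 7.95% and 6.05% of all genes (adjusted p under 0.05 for the interaction). KLK2 had a log2FC of 3.29 in C4-2 and 4.95 in LNCaP, a difference of -1.68 ± 0.13 (edgeR adjusted p = 4.6e-09), and FKBP5 differed by -0.99 ± 0.09. KLK3 differed the other way, by 0.44 ± 0.14 (edgeR adjusted p = 0.034), and SLC45A3 by 0.04 ± 0.14, which did not pass. The response was also more negative in C4-2 in 14 of 20 cholesterol genes, 12 of 17 fatty acid genes and 14 of 23 ER genes, against 7.95% of all genes. FASN differed by -1.38 ± 0.17. Without vehicle library 3 these counts were 14 of 28, 15 of 20, 12 of 17 and 14 of 23.

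The DNA replication genes tended lower in C4-2 and higher in LNCaP. Of the 22 genes, 13 fell in C4-2, against 15.7% of all genes tested, and 13 rose in LNCaP, where the matching share is not given here. The medians were -0.34 and 0.21. The response was more negative in C4-2 in 15 genes (16 without vehicle library 3), against 7.95% of all genes. E2F1, of the G1 list, had a log2FC of -0.68 in C4-2 and 0.16 in LNCaP, a difference of -0.85 ± 0.20 (edgeR adjusted p = 0.0051). For mitosis genes the response was more negative in C4-2 in 8 of 20, against the same 7.95% of all genes, and in 5 without vehicle library 3. MKI67 differed by -0.50 ± 0.15 (edgeR adjusted p = 0.028).

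Among the genes named, some had a larger, a smaller or a reversed response in C4-2. AKAP12 differed by 3.31 ± 0.34 (edgeR adjusted p = 3.8e-07), and LNCaP had 9.34, 11.97 and 13.1 CPM with vehicle and 259.5, 318 and 319 CPM with R1881, so its level with R1881 was higher in LNCaP and its vehicle level much lower in C4-2. PIAS1 differed by 0.81 ± 0.10 and KDM7A by 0.60 ± 0.14 (edgeR adjusted p = 0.0049). IGFBP3 fell in C4-2 and rose in LNCaP, with log2FC of -1.84 and 1.59. GRB10 fell less in C4-2, by 1.33 against 2.98.

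**Figure D5:**
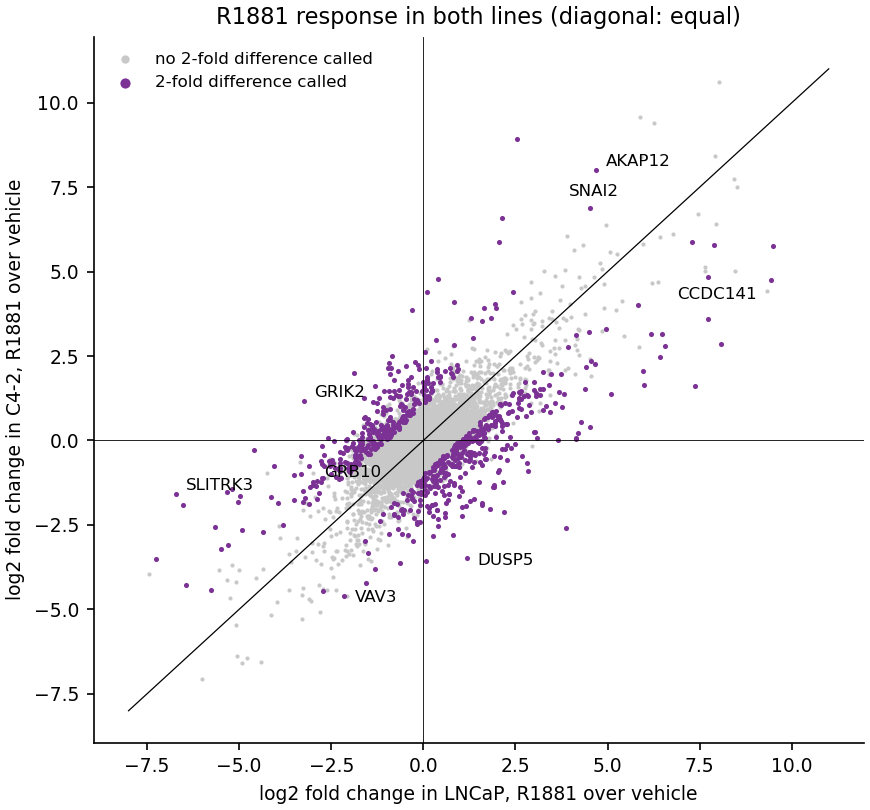
Log2 fold change of R1881 over vehicle in LNCaP (x axis) and C4-2 (y axis) for genes tested in both lines and in the interaction, with purple points where an at least 2-fold difference passed the test and a diagonal where both responses are equal. Most genes lie along the diagonal, with AKAP12 above it at 8.0 in C4-2 and DUSP5 below it at -3.49 in C4-2 and 1.17 in LNCaP.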

How the data were processed

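RNA Seq counts of 18 libraries were analysed, 6 of them for the main comparison, with groups taken from sample titles. The authors trimmed reads with Trim Galore, aligned them to GRCh38 with STAR and counted read pairs per Ensembl 83 gene with featureCounts 1.5.0-p1, per the file headers, the paper's methods and the submitters' processing notes. The deposited values are whole-number counts, not normalised, and per the file headers no option for strand was set. Genes that share sequence, or overlap on opposite strands, can therefore hold each other's reads. Poly(A) capture and read counting leave no measure of total RNA per cell, so CPM compare shares of the counted RNA. Files listed 60675 genes.

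The 9 C4-2 libraries were fitted in 1 model with 3 groups in R 4.3.3 with edgeR 4.0.16 (TMM factors, filterByExpr with minimum count 10 and minimum total 15, 2-sided quasi-likelihood F-test, Benjamini-Hochberg adjustment). Differential expression required a 2-fold change or more in either direction beside an adjusted p under 0.05. The interaction between lines used all 18 libraries. CPM were scaled with TMM factors, means are given ± SD and log2FC ± SE. Where a group had 0 counts it was set at 3 counts over the group, and ratios with 1 to 3 counts have 95% exact intervals. The alternatives used limma 3.58.1 and DESeq2 1.42.0, and Python 3.11.15 ran the other steps (numpy 2.4.6, pandas 2.3.3, matplotlib 3.10.9, scipy 1.17.1). The fits were tested on simulated data.

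The 23 gene lists, the rule for named genes and the tests were chosen with earlier results of these data known. Named were list members that were differentially expressed, the 12 largest increases and 12 largest decreases (differentially expressed, mean level of 1 CPM or more, separate groups, a symbol), KDM1A, KDM7A, the 10 genes with most CPM gained and 5 with most lost, and for the difference between lines the 5 largest in each direction. Other members are named as examples, and some items that the rule names are not reported here. Alternatives were DESeq2, RLE factors, voom with sample quality weights, glmTreat for changes beyond 2-fold, calls by adjusted p without a fold limit, thinning of each library to the smallest, no filter on low counts, a minimum mean of 1 CPM, a fit of the compared groups alone, a block for replicate number, and omission of each library in turn. Removal of the GC trend and a fit of protein-coding genes alone were chosen after seeing the data. Gene symbols came from GENCODE 29 and promoter windows from RefSeq, GRCh38.p14.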

Additional observations from a re-analysis of the deposited data

Results flagged for a closer look

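The 10 genes below had the largest differences between the lines (log2, C4-2 minus LNCaP), 5 in each direction, among genes with a mean level of 1 CPM or more that passed both the interaction test and the comparison in C4-2 (edgeR, 2-fold or more). Where a group had few or no counts, the fitted value depends on the prior count of the fit.

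Higher responses in C4-2 were seen for TMEM100 (6.39, edgeR adjusted p = 0.020), which had 0 vehicle counts in C4-2, and this call was lost without C4-2 vehicle library 1 (edgeR adjusted p = 0.061) or 2 (edgeR adjusted p = 0.052). ALDH1A1, a retinal dehydrogenase, differed by 5.11 (edgeR adjusted p = 0.012) with at most 0.139 CPM in any LNCaP library, and this call was lost without LNCaP vehicle library 2 (edgeR adjusted p = 0.24). SLITRK3, a neuronal adhesion protein, differed by 5.15 ± 0.25, with 84.4 to 92.4 CPM in LNCaP vehicle libraries and 0.732 to 0.985 CPM with R1881, and it fell in both lines, by 1.58 in C4-2 and 6.71 in LNCaP on the log2 scale. KCNJ3, a potassium channel, differed by 4.59 ± 0.51 and fell in both lines. GRIK2, a glutamate receptor, differed by 4.40 ± 0.20, with a log2FC of 1.17 in C4-2 and -3.25 in LNCaP.

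Lower responses in C4-2 were seen for PCDH19 (-6.03 ± 0.84), which had at most 0.366 CPM in LNCaP. TMEM92 differed by -5.72 ± 1.12, with 0 CPM in the LNCaP vehicle libraries, and rose in both lines, by 1.63 in C4-2 and 7.38 in LNCaP. The growth factor HGF differed by -5.41 ± 1.17. It was at 60.2 to 61.4 CPM in C4-2 vehicle libraries, and its log2FC in C4-2 was -1.85. In LNCaP, HGF was at 0 CPM with vehicle and only 0.0575 to 0.109 CPM with R1881. CCDC141 differed by -4.70 ± 0.65 and rose in both lines. DUSP5, a phosphatase of the ERK kinases, differed by -4.66 ± 0.39, with a log2FC of -3.49 in C4-2 and 1.17 in LNCaP.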

How the results depend on the processing

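The 1539 differentially expressed genes (728 higher, 811 lower) became 868 (423 and 445) with libraries thinned to the smallest, which lowers depth, 590 (366 and 224) with glmTreat, which tests for changes beyond 2-fold, and 5571 (2902 and 2669) by adjusted p alone. Without a filter on low counts, which adds genes, 1277 were lower. The other alternatives kept these counts within 1.5 times, DESeq2 with 1373 and removal of the GC trend with 1440. That removal changed some list counts. Rises went from 9 to 8 of 21 cofactors and from 13 to 16 of 20 cholesterol genes. Falls went from 14 to 17 of 20 mitosis genes and from 3 to 6 of 13 amino acid transporters. FASN then had a log2FC of 0.97, and EEF2 no longer passed (edgeR adjusted p = 0.095). Leaving out 1 library at a time gave 1339 to 1605 genes, 667 to 753 higher and 671 to 858 lower, and for the difference between lines 689 to 810, 293 to 383 and 380 to 452. With replicate number as a block the counts were 1462 and 766. Deviations of same-numbered libraries correlated with r from -0.05 to 0.14, a range overlapping that of differently numbered libraries (-0.15 to 0.13). Whether the numbers mark pairs was thus not settled, and they were not taken as pairing. Of 133 results of single genes, 106 kept their call in every alternative. With 1 library left out, MTCO1P12 ranged from -4.86 to 0.13, reversing without vehicle library 3. Depth of vehicle library 3 limits genes of low level.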
